A study of Mus musculus with 21 samples.

Results

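This report describes 39 type I interferon response genes in germinal centre B cells and the plasma cells and memory precursors that arise beside them, in draining lymph nodes of immunized mice. The members are a fixed list of interferon-stimulated genes, chosen by name with earlier results of these data known, and all 39 were rows of the deposited gene list of 14493 genes. The data are droplet-based single-cell RNA sequencing of 6619 sorted cells from 6 mice, with 2 mice at each of days 10, 16 and 22 of the primary response. All mice had been immunized under the skin with 100 µg NP-KLH, a hapten coupled to a carrier protein, in Sigma Adjuvant System, and all had received a single 5 mg oral dose of tamoxifen to switch on Cre-ERT2-mediated labelling. Live IgD-negative eYFP-positive cells were sorted, and PC and non-PC were loaded in separate wells with the cells of the 6 mice pooled. Strain, genotype, the promoter driving Cre-ERT2 and the age of the mice are not given in the sources used here. There was no unimmunized, untreated or unlabelled group, so every comparison is between days, between cell states or between cell cycle phases of immunized and tamoxifen-treated mice.

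The deposited cell table assigns each cell to a mouse and to a state: LZ and DZ (light zone and dark zone germinal centre B cells), LZtoDZ, preMem, prePC and PC. LZ, DZ and LZtoDZ cells together are called germinal centre cells below. The mouse was the replicate, so counts of unique molecular identifiers (UMIs, each marking 1 captured RNA molecule) were summed per mouse and state. LZ sums held 276 to 708 cells, DZ sums 214 to 623, preMem sums 36 to 286, PC sums 12 to 127 and prePC sums 3 to 28 cells, with 1 mouse of day 16 having no prePC cell. UMIs per cell averaged 8102 to 9715 in LZ, 9727 to 12651 in DZ, 5077 to 6652 in preMem and 13618 to 21366 in PC. Summed levels of the PC markers were 17280 to 31687 unscaled CPM (UMIs relative to the total UMIs of the sum) in PC and at most 1755 in DZ, and those of the preMem markers were 805 to 1059 unscaled CPM in preMem and at most 72.6 in LZ. The labels PC and preMem thus matched their markers. Of cell barcodes, 6 occurred in both wells.

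Type I interferons are secreted proteins that signal through a shared receptor and the kinases JAK1 and TYK2 to a transcription factor complex that contains IRF9 and binds a DNA element called the interferon-stimulated response element, and that switches on a large set of genes. The products of these genes sense foreign nucleic acids (Ddx58, Ifih1, Dhx58, Zbp1), block viral entry, translation or release (Ifitm3, the Ifit and Oas families, Bst2), tag proteins or remove the tag (Isg15, Usp18), or feed the signal forward (Irf7, Irf9, Stat2). Several are also part of ordinary B cell and plasma cell biology, so a level in a B cell is not by itself a readout of interferon.

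The promoters of 5 members are shown because the results turn on these genes and because the element recognised by the complex that contains IRF9 can be seen in some of them. Each runs from 250 bases before to 50 bases after the annotated start, 5′ to 3′ on the gene's own strand, from the RefSeq annotation of GRCm38.p6. Capitals mark matches on either strand to GAAA, then NN (any 2 bases), then GAAA, a short form of the interferon-stimulated response element. The Isg15 window lies at chr4:156200769-156201068, the Bst2 window at chr8:71537423-71537722, the Ifitm3 window at chr7:141010695-141010994 and the Irf7 window at chr7:141266375-141266674, all on the minus strand. The Slfn2 window lies at chr11:83064862-83065161 on the plus strand.
Isg15: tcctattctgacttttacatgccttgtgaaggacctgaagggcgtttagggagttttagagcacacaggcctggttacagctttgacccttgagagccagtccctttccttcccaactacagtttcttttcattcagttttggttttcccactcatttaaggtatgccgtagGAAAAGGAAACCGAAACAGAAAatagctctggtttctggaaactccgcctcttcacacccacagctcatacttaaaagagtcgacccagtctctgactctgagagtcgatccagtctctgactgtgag
Bst2: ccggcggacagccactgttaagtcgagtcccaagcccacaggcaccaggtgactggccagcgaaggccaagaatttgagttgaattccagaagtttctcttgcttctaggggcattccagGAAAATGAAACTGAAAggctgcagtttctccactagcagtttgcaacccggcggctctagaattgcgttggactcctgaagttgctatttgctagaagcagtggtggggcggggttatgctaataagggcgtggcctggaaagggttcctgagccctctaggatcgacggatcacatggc
Ifitm3: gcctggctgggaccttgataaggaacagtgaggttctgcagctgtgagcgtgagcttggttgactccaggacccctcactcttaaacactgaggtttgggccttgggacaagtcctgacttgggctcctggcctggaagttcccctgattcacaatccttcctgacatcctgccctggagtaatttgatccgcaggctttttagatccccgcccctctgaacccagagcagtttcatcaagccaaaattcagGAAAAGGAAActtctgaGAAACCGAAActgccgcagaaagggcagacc
Irf7: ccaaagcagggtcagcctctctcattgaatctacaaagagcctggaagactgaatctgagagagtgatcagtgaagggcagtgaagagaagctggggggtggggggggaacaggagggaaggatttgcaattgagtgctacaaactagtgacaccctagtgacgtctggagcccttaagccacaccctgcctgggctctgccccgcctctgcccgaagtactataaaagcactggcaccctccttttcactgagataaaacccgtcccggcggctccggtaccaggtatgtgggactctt
Slfn2: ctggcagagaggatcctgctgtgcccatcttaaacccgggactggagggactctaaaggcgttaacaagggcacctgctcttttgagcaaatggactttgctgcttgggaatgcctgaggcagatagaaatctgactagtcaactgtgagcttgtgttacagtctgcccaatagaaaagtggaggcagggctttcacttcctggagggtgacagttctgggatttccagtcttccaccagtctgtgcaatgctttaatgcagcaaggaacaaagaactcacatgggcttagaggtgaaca
Isg15, a ubiquitin-like protein that is joined to other proteins, had 3 overlapping matches that begin 78, 72 and 66 bases before its start. Bst2, the membrane tether that holds budding virions, had 2 overlapping matches at 130 and 124 bases before its start. Ifitm3, which blocks fusion of viruses with endosomes, had 2 matches just after its start. Irf7 and Slfn2 had none in these windows. Of the 39 members, 30 were found in the promoter table by symbol, with 37 windows because some genes have several starts, and 14 of the 30 genes had a match. Of all 27025 genes in the table, 3.99% had one. Counted by window, 15 of the 37 member windows and 3.44% of all 32851 windows held a match. A match is a description of letters and does not show binding, and the absence of a match says only that these letters are not in that window. Members not found in the table were Ifi27l2a, Rtp4, Pydc3, Usp18, Mx1, Dhx58, Zbp1, Parp9 and Parp14.

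The day course was read first in LZ cells, which compete for antigen and T cell help. Interferon response genes were lower at day 22 than at day 10: 7 of the 28 members that passed the filter on low counts fell, none rose, and all 28 log2 differences were negative. Across all 9753 genes tested in LZ, 0.851% were called lower, and the median log2 difference was -0.74 over the 28 members and 0.00 over all genes. The genes that fell were Ifi27l2a, Slfn2, Irf9, Xaf1, Ifi203, Rtp4 and Oasl2 (edgeR quasi-likelihood test, Benjamini-Hochberg adjusted p below 0.05). Levels given as CPM are relative to the TMM-scaled library size of the comparison, and the 2 values of a day are its 2 mice. The filter asks for enough counts in only 2 sums, so a member can pass it through its day 10 mice alone. Rtp4, Oasl2 and Oas1a were of this kind in LZ, with at most 1.13, 1.52 and 1.76 CPM after day 10. Such members could only be called lower, and the counts, signs and median above include them.

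Ifi27l2a, a small interferon-induced membrane protein and the member with the most UMIs, had 447 and 663 CPM at day 10, 172 and 160 at day 16 and 209 and 181 at day 22. Both day 10 mice lay above all 4 later mice, and the day 22 mice lay slightly above the day 16 mice. The log2 difference of day 22 against day 10 was -1.51 ± 0.16 (SE derived from the F statistic, n = 2 mice a day, edgeR adjusted p = 0.00354). Slfn2, a Schlafen protein needed for lymphocyte quiescence in mice, had 112 and 128 CPM at day 10, 78.2 and 80.8 at day 16 and 70.6 and 68.8 at day 22. Its days did not overlap, and the difference of day 22 against day 10 was -0.79 ± 0.08 (edgeR adjusted p = 0.00293). Irf9, the DNA-binding subunit of the STAT complex, had 28.0 and 35.6 CPM at day 10, 15.2 and 15.7 at day 16 and 18.9 and 13.2 at day 22. The day 10 mice were again the 2 highest, with a difference of -1.02 ± 0.18 (edgeR adjusted p = 0.0335). Xaf1, an antagonist of apoptosis inhibitors, had 18.8 and 23.1 CPM at day 10, 6.14 and 4.95 at day 16 and 11.4 and 9.44 at day 22, a difference of -1.03 ± 0.19 (edgeR adjusted p = 0.0335).

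The other 3 genes that fell in LZ were low in CPM. Ifi203, of the nucleic-acid-binding p200 family, had 3.81 and 1.70 CPM at day 22, against 12.3 and 14.5 at day 10, with a log2 difference of -2.29. Rtp4, an interferon-induced Golgi chaperone, had 0.190 and 1.13 CPM at day 22, against 4.99 and 7.90 at day 10, a difference of -3.31. Oasl2, an oligoadenylate synthetase-like protein, had 1.52 and 0.944 CPM at day 22, against 5.37 and 5.22 at day 10, a difference of -2.07. In each of the 3 the day 10 mice were above the later ones. Members that did not pass the test included Irf7 (-0.78, edgeR adjusted p = 0.0635), Zbp1 (-0.81, edgeR adjusted p = 0.0574) and Bst2 (-0.85, edgeR adjusted p = 0.0952). Stat2 and Samd9l had differences of -0.07 and -0.04.

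Day 16 was compared with both other days. Day 16 against day 10 in LZ called 4 of 28 members lower, against 0.267% of all genes tested, and none higher. These were Ifi27l2a (-1.75), Xaf1 (-1.96), Slfn2 (-0.60) and Oasl2 (-3.08), and 27 of the 28 differences were negative. This comparison shares its day 10 mice with the one above. Day 22 against day 16 called 0 of 28 members, with 2 at an unadjusted p below 0.05 (Xaf1, 0.93, and Slfn2, -0.19), against 0.0513% of all genes called in either direction. DESeq2 was not run on this contrast.

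**Figure D1:**
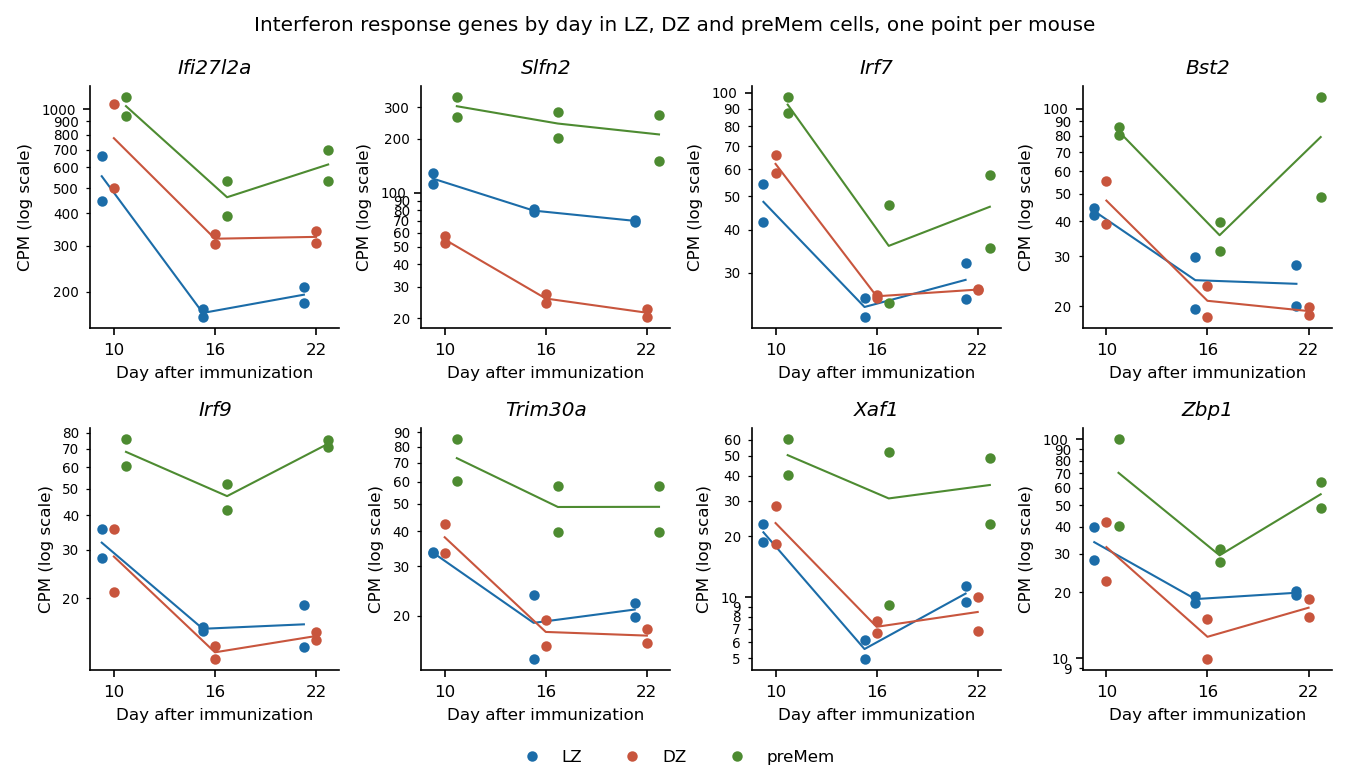
Level of 8 members by day in LZ, DZ and preMem cells, as CPM on a log axis, with 1 point per mouse and a line through the mean of the 2 mice of a day. In LZ and DZ the 2 day 10 points of Ifi27l2a, Slfn2 and Irf7 lie above all later points of the same state, and days 16 and 22 lie close together.

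DZ cells, which divide and mutate their receptors, showed the same direction with a partly different set of genes past the test. At day 22 against day 10, 7 of 28 members fell and none rose, against 0.303% of the 9572 genes tested that were called lower. The median log2 difference was -1.11 over the 28 members and 0.00 over all genes, and 27 of the 28 were negative. Slfn2, Ifi203 and Rtp4 passed the test in DZ as in LZ, and the other 4 genes that fell were Irf7, Ifitm3, Trim30a and Bst2. Ifi203 and Rtp4, with at most 1.28 and 0.922 CPM after day 10, passed the filter in DZ through their day 10 mice alone. Oasl2, Oas1a, Usp18 and Ifit3 did so too, and all of these could only be called lower. With each mouse left out in turn the count ranged over 2 to 11 in DZ and 2 to 7 in LZ. It was 2 in DZ and 2 in LZ without day 10 mouse 2, and 11 in DZ without day 10 mouse 1.

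Irf7, the transcription factor that amplifies interferon induction, had 58.5 and 65.8 CPM in DZ at day 10, 25.4 and 25.8 at day 16 and 26.6 and 26.9 at day 22. The day 10 mice stood apart, and the difference of day 22 against day 10 was -1.22 ± 0.11 (edgeR adjusted p = 0.00239). Slfn2 had 52.3 and 57.5 CPM at day 10, 24.3 and 27.2 at day 16 and 22.6 and 20.3 at day 22, a difference of -1.35 ± 0.13 (edgeR adjusted p = 0.00239). Bst2 had 39.0 and 55.5 CPM at day 10, 18.3 and 23.5 at day 16 and 19.9 and 18.6 at day 22. Its difference was -1.32 ± 0.19 (edgeR adjusted p = 0.0222), with no overlap of day 10 with the later days. Trim30a, a TRIM family protein that dampens innate signalling in mice, had 33.5 and 42.6 CPM at day 10, 19.4 and 15.7 at day 16 and 16.1 and 17.9 at day 22, a difference of -1.19 ± 0.16 (edgeR adjusted p = 0.0200). The low genes were Ifitm3 (2.60 and 2.14 CPM at day 22, 9.75 and 18.4 at day 10, difference -2.60), Ifi203 (-3.06) and Rtp4 (-5.12).

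Ifi27l2a was high and uneven in DZ, with 500 and 1052 CPM at day 10, 334 and 306 at day 16 and 308 and 342 at day 22. The day 10 mice differed from each other by more than the lower of them differed from the later mice, and the difference of -1.26 did not pass the test (edgeR adjusted p = 0.0920). Day 16 against day 10 in DZ, on the same day 10 mice, called 5 of 28 members lower, against 0.115% of all genes tested. These were Irf7, Slfn2, Ifi203, Ifitm3 and Dhx58, a regulator of the RIG-I-like sensors, which had 21.8 and 24.2 CPM at day 10, 10.6 and 9.44 at day 16 and 12.8 and 13.0 at day 22. Day 22 against day 16 in DZ called 0 of 28 members by edgeR, with 1 at an unadjusted p below 0.05, against 0.0522% of all genes in either direction.

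**Figure D2:**
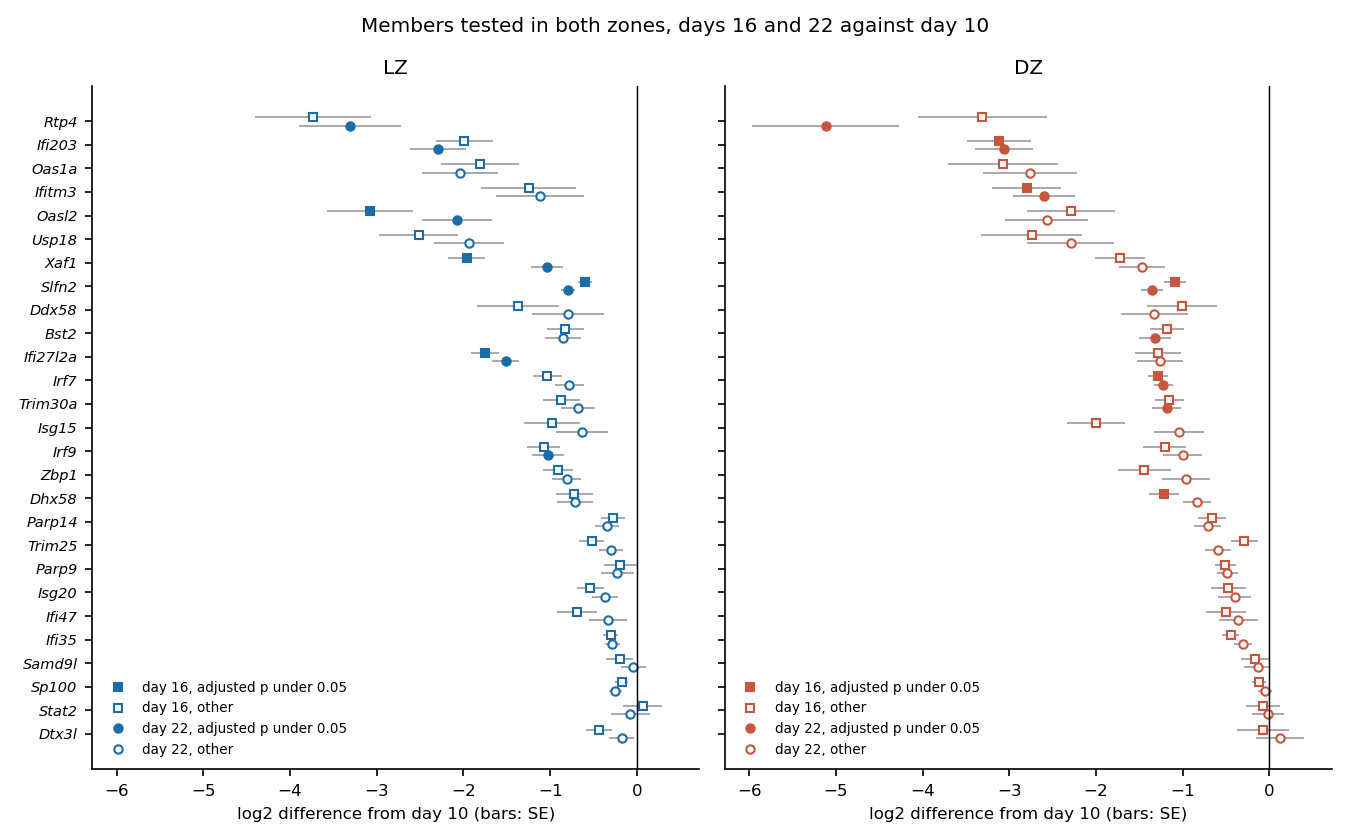
Log2 difference from day 10 at days 16 and 22 for each member tested in both LZ and DZ, with bars of 1 SE derived from the edgeR F statistic and filled symbols for an adjusted p under 0.05. Nearly all symbols lie left of the zero line in both zones, from -5.12 for Rtp4 in DZ to values near 0 for Stat2, Samd9l, Sp100 and Dtx3l.

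The difference between the zones was tested directly. The interaction of state and day (DZ against LZ, day 22 against day 10, mouse as block) called 0 of 25 members by edgeR, against 0.0745% of all genes in either direction. Slfn2 had the lowest p, with a fall larger in DZ by 0.57 log2 units (unadjusted p = 0.00122, edgeR adjusted p = 0.521), and 5 members had an unadjusted p below 0.05.

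Other values moved with the day in the same cells. The summed level of the 6 germinal centre markers in LZ was 798 to 852 unscaled CPM at day 10, 1052 to 1070 at day 16 and 1175 to 1178 at day 22. That of the 6 preMem markers in LZ was 48.6 to 72.6 unscaled CPM at day 10, 39.3 to 43.5 at day 16 and 26.2 to 32.1 at day 22. In DZ the preMem sum was 14.0 to 19.7, 12.4 to 13.5 and 8.92 to 12.0 unscaled CPM. The macrophage and monocyte markers went the other way in LZ, 9.18 to 44.4 unscaled CPM at day 10, 70.5 to 83.0 at day 16 and 39.4 to 128 at day 22. The part of these shifts in the interferon result was not tested. Day, mouse pair and hashtag cannot be told apart, since each mouse was on 1 day.

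preMem cells, annotated as memory precursors, gave a less certain day course, with 36 to 63 cells in each mouse after day 10. At day 16 against day 10, 1 of 22 members tested fell, against 0.0790% of all genes called lower. That gene was Ifi27l2a, with 943 and 1116 CPM at day 10, 530 and 392 at day 16 and 532 and 700 at day 22, and a difference of -1.18 ± 0.19 for day 16 (edgeR adjusted p = 0.0276). The call was lost with thinned cells and without day 16 mouse 2. Day 22 against day 10 called 0 of 22 by edgeR and DESeq2, with 4 at an unadjusted p below 0.05, against 0.0526% of all genes called lower. The median log2 difference over the 22 members was -0.52 at day 22 and -0.82 at day 16, and -0.01 and 0.01 over all genes. All 22 differences were negative at day 16 and 18 of 22 at day 22. Day 22 against day 16 called 0 of 22 members, with 3 at an unadjusted p below 0.05, against 0.132% of all genes in either direction.

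Single members in preMem showed the spread behind these counts. Irf7 had 97.3 and 87.6 CPM at day 10, 47.2 and 24.5 at day 16 and 35.4 and 57.8 at day 22, so that the day 10 mice lay above the rest, but the difference at day 22 was not called (-1.0, edgeR adjusted p = 0.923). Bst2 had 80.6 and 85.8 CPM at day 10, 31.5 and 39.8 at day 16 and 48.7 and 110 at day 22, and here days 10 and 22 overlapped. Irf9 had 60.4 and 76.0 CPM at day 10, 42.0 and 52.1 at day 16 and 70.9 and 75.2 at day 22, also with overlap of days 10 and 22. The interaction of preMem against LZ called 0 of 28 members, with 3 at an unadjusted p below 0.05, against 0.167% of all genes in either direction. The lowest p belonged to Ifi27l2a, whose difference of day 22 against day 10 was less negative in preMem by 0.70 log2 units (edgeR adjusted p = 0.350).

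The summed level of all 39 members gives the course in 1 number, without a test. In LZ it was 1381 and 1805 unscaled CPM at day 10, 961 and 899 at day 16 and 996 and 972 at day 22. In DZ it was 1335 and 2096 unscaled CPM at day 10, 1008 and 924 at day 16 and 980 and 1031 at day 22. In preMem it was 2778 and 3559 unscaled CPM at day 10, 1917 and 1678 at day 16 and 2150 and 2502 at day 22. In all 3 states both day 10 mice were above every later mouse. Ifi27l2a alone made up 17.8% to 36.1% of the sum in LZ and 31.7% to 49.1% in DZ. Without it the log2 ratio of day 22 to day 10 was -0.41 in LZ, against -0.68 with it, and -0.49 in DZ, against -0.74 with it.

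PC showed the same order of the summed level, 2578 and 3844 unscaled CPM at day 10, 1775 and 1391 at day 16 and 1933 and 1938 at day 22. No day comparison was tested in PC.

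Whether many cells or few carried the day 10 level was described by thinning each cell to 4727 UMIs, which left out 662 shallower cells, and counting the members detected in it. The loss was uneven, with 319 of 522 preMem cells kept, 2889 of 3194 LZ, 2237 of 2382 DZ and 240 of 242 PC. Thinned values in preMem thus describe its deeper cells. LZ cells held a mean of 4.03 and 4.68 members at day 10, 3.30 and 3.12 at day 16 and 3.45 and 3.21 at day 22. DZ cells held 3.74 and 4.68 members at day 10, 3.20 and 2.93 at day 16 and 3.12 and 3.15 at day 22. preMem cells held 7.06 and 7.63 members at day 10, 5.00 and 4.28 at day 16 and 5.42 and 6.73 at day 22. In each state both day 10 mice were above all later mice. Without thinning LZ cells held 4.55 to 4.98 members at the later days, against 6.22 and 7.04 at day 10.

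A tail of cells with many members was larger at day 10. A limit of 10 or more members per thinned cell was set after seeing the data and is used only to describe. In LZ, 44 of 918 cells passed it at day 10 (4.79%, exact 95% binomial interval 3.50 to 6.38, counting error only), 4 of 854 at day 16 (0.468%, 0.128 to 1.19) and 6 of 1117 at day 22 (0.537%, 0.197 to 1.17). In DZ, 31 of 607 passed at day 10 (5.11%, 3.50 to 7.17), 3 of 620 at day 16 (0.484%, 0.0999 to 1.41) and 4 of 1010 at day 22 (0.396%, 0.108 to 1.01). In preMem, 60 of 217 passed at day 10 (27.6%, 21.8 to 34.1), 0 of 63 at day 16 (upper bound 5.69%) and 3 of 39 at day 22 (7.69%, 1.62 to 20.9). Both mice of day 10 had such cells, 3.09% and 5.46% of LZ cells and 1.96% and 6.70% of DZ cells, with mouse 2 the higher in each.

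There were 75 such cells among the 1525 LZ and DZ cells of day 10 that were kept at thinning. None had a UMI of C1qa, C1qb, C1qc or Csf1r (macrophage genes) or of Siglech (plasmacytoid dendritic cells), and 1 (1.33%) had a UMI of Cd3e, Cd3d or Cd3g. In the other 1450 cells the shares were 0.690%, 0.0690% and 0.552%. At such low rates, finding none among 75 cells says little. A preMem marker UMI was found in 32.0% of the 75 cells and in 27.4% of the other 1450 cells. Their median depth was 10116 UMIs, against 9690 in the others. The 75 cells held 73.9% of the Ifit3 UMIs of these 1525 cells, 46.5% of Ifitm3, 43.0% of Isg15, 42.7% of Rtp4 and 13.1% of Ifi27l2a. These shares follow in part from how the 75 cells were picked.

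In LZ and DZ the day difference was smaller without these cells but kept its direction, and in preMem the days then overlapped. The cells were picked for many of these same members and were most frequent at day 10. The smaller difference and the overlap thus follow at least in part from how they were picked. The levels in this paragraph cover only cells kept at thinning, with their full counts. With the picked cells left out on all days, the summed level in LZ was 973 and 935 unscaled CPM at day 22, against 1301 and 1618 at day 10. In DZ it was 953 and 1027 unscaled CPM at day 22, against 1276 and 1799 at day 10. In preMem it was 1788 and 2145 unscaled CPM at day 22 and 1822 and 1671 at day 16, against 1724 and 2343 at day 10. With all kept preMem cells it was 1872 and 2822 at day 22 and 1822 and 1671 at day 16, against 2870 and 3287 at day 10. Without the picked cells day 10 mouse 1 thus lay below 3 of the 4 later mice in preMem. Without the picked cells Ifi27l2a in LZ and DZ together stood at 260 unscaled CPM at day 22, against 648 at day 10. With all kept cells it stood at 263 and 711. Isg15 stood at 12.0 unscaled CPM at day 22, against 13.6 at day 10 without the picked cells, and with all kept cells at 12.3 and 22.7.

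**Figure D3:**
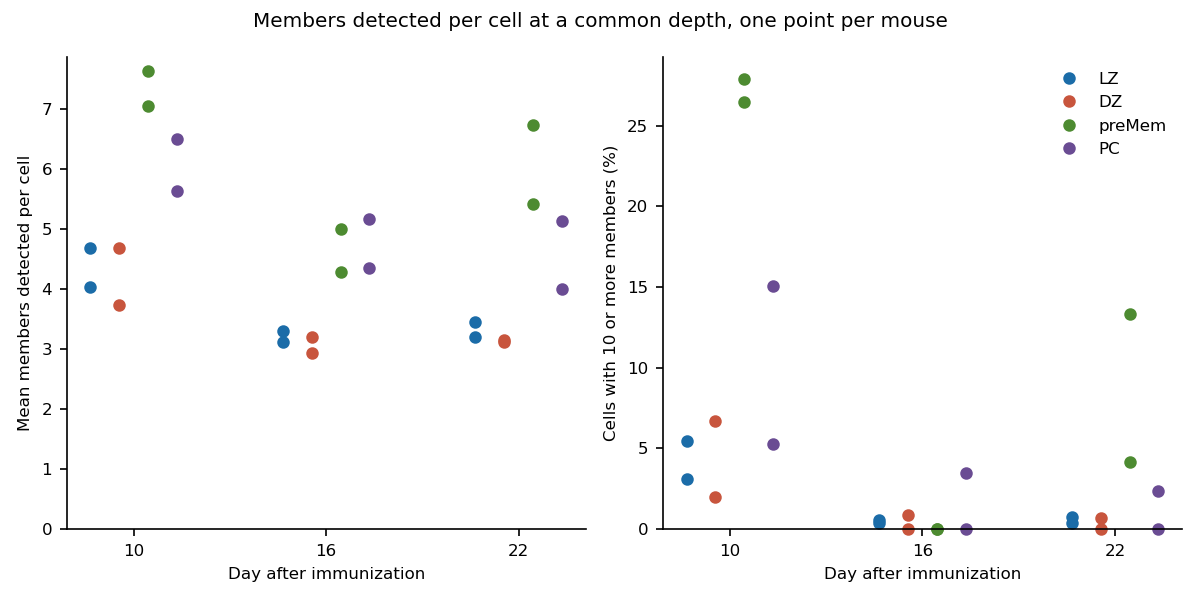
Members detected per cell after thinning to 4727 UMIs, as the mean (left) and as the percentage of cells with 10 or more members (right), with 1 point per mouse for LZ, DZ, preMem and PC at days 10, 16 and 22. Both preMem day 10 points lie at 26.5% and 27.9% on the right, while every LZ and DZ point of days 16 and 22 is below 1%.

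Genes of the antiviral core were near the floor. Of the 39 members, 7 passed the low-count filter in no comparison: Ifit1, Ifit2, Oas3, Mx1, Ifi44, Ifih1 and Rsad2. Ifi44 had 3 UMIs in all 6619 cells, Rsad2 (viperin) 16, Oas3 40, Mx1 52, Ifih1 (the sensor MDA5) 55, Ifit1 58 and Ifit2 96. Ifit3, which with Ifit1 and Ifit2 binds foreign RNA to block its translation, had 163 UMIs, 84 of them in preMem and 0 in PC. In LZ and DZ the members not tested were 11 each. Their counts in germinal centre cells, pooled over the 2 mice of a day, can still be set side by side. Ifit3 had 51 UMIs at day 10, 4 at day 16 and 8 at day 22, in 19161175, 17180368 and 23661385 UMIs in all. Ifit1 had 31, 2 and 2 UMIs on those days, and Rsad2 7, 3 and 0. In unscaled CPM, Ifit3 stood at 0.338 at day 22 (exact Poisson 95% interval 0.146 to 0.666), against 2.66 at day 10 (1.98 to 3.50), intervals that cover counting error only. Of the 51 Ifit3 UMIs at day 10, 10 came from mouse 1 and 41 from mouse 2. Ifit3 passed the filter in DZ, where its difference of day 22 against day 10 was -3.47 (edgeR adjusted p = 0.0778).

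Genes of the pathway outside the members did not pass the test over days. Of 29 listed genes for interferon receptors, kinases, STAT and IRF factors, ligands, sensors and adaptors, 26 were in the gene list, and of these 0 of 22 tested in LZ, 0 of 20 in DZ and 0 of 14 in preMem were called at day 22 against day 10 by edgeR. At an unadjusted p below 0.05 there were 5, 2 and 3. The lowest p in LZ belonged to Ifnar2, a chain of the type I interferon receptor, with 6.83 CPM at day 22 and 12.4 at day 10 (-0.86, edgeR adjusted p = 0.0703). Of 61 further interferon-induced genes, 54 were in the gene list. At day 22 against day 10, 2 of 41 fell in LZ (Shisa5, -0.52, and Mndal, -1.82) and 4 of 37 in DZ (Mndal, -3.45, Cmpk2, -2.50, Rnf213, -1.24, and Oasl1, -2.76), with none higher, against 0.851% of all genes called lower in LZ and 0.303% in DZ.

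PC differed from germinal centre cells in both directions. Of 25 members tested, 14 were higher in PC and 2 lower, against 20.4% of all 9143 genes called higher and 25.5% called lower. The median log2 difference was 0.83 over the 25 members and -0.14 over all genes. PC came almost wholly from the PC well (234 of 242 cells) and germinal centre cells from the other, so well and state were largely confounded, and immunoglobulin transcripts made up 15.5% to 26.9% of PC UMIs.

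Pml, which builds the nuclear bodies of that name and is interferon-induced, was the largest of these. Its PC levels were 58.9, 103, 60.7, 60.4, 53.5 and 64.7 CPM in the 6 mice (days 10, 10, 16, 16, 22 and 22), against 0.603, 1.16, 0, 0.544, 0.558 and 0.601 CPM in germinal centre cells. Every PC value was far above every germinal centre value, with a difference of 6.73 ± 0.28 log2 units (SE, edgeR adjusted p = 1.83e-08). With so few germinal centre counts, Pml passed the low-count filter through its PC sums alone and could only be called higher. Isg20, an exonuclease that degrades RNA, had 423, 590, 842, 224, 398 and 324 CPM in PC and 18.8 to 29.8 CPM in germinal centre cells, a difference of 4.27 ± 0.23. Bst2 had 497, 766, 243, 213, 525 and 309 CPM in PC and 18.6 to 39.4 CPM in germinal centre cells, a difference of 4.0 ± 0.20. For both genes the lowest PC value was above the highest germinal centre value.

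Isg15 and Ifitm3 were higher in PC but varied widely between mice. Isg15 had 224 and 390 CPM in PC at day 10, 22.7 and 28.4 at day 16 and 79.6 and 349 at day 22, against 5.52 to 20.2 CPM in germinal centre cells, a difference of 3.71 ± 0.40. All 6 PC values lay above the germinal centre range. Ifitm3 had 269 and 238 CPM in PC at day 10, 30.3 and 39.1 at day 16 and 288 and 74.7 at day 22, against 1.48 to 9.37 CPM in germinal centre cells, a difference of 5.28 ± 0.36. Ddx58 (the RNA sensor RIG-I, 3.71 ± 0.31) and Zbp1 (a sensor of left-handed nucleic acid, 2.65 ± 0.16) were higher in PC in 6 of 6 mice. Irgm1, an immunity-related GTPase, was higher in 5 of 6 mice (3.34 ± 0.29).

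The remaining higher genes were Ifi203 (2.78), Trim25 (1.78), Trim30a (1.65), Ifi27l2a (1.10), Ifi47 (0.83, 5 of 6 mice) and Xaf1 (0.74, 4 of 6 mice). Samd9l, a translational repressor, was lower in PC at 5.07 ± 3.23 CPM, against 17.4 ± 1.5 in germinal centre cells (SD, n = 6 mice, difference -1.71 ± 0.31, edgeR adjusted p = 0.00107). Sp100, a nuclear body protein often paired with Pml, was lower at 132 ± 43.9 CPM in PC and 212 ± 15.8 in germinal centre cells (-0.75 ± 0.18, edgeR adjusted p = 0.00558). Both were lower in 6 of 6 mice. Irf7 (0.10), Stat2 (-0.31), Parp9 (-0.21) and Dtx3l (0.08) did not pass the test.

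Within the PC well, where both states shared a library, the largest differences kept their direction. Pooled over mice, Bst2 stood at 473 unscaled CPM in the 234 PC of that well, against 52.3 in its 156 germinal centre cells. Isg20 stood at 393 against 15.4, Isg15 at 209 against 9.74, Ifitm3 at 168 against 7.17 and Pml at 62.9 against 2.56. The edgeR fit on that well alone had 4 mice and tested 10 members, of which 6 were higher and 0 lower. This count is given without the share of all genes called in that fit, so it describes direction only. Sp100 there had a log2 difference of 0.49 in place of -0.75. The summed macrophage and monocyte markers were 420 to 2351 unscaled CPM in PC, with Csf1r and Adgre1 at 0 and most of the sum from Ly6c2, and Cd3e was at 0.

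prePC cells, annotated as plasma cell precursors, were few, and 5 mice had 3 or more. Of 24 members tested, 9 were higher in prePC than in germinal centre cells and 0 lower, against 3.71% of all 8631 genes called higher and 4.72% called lower. The median was 0.66 over the members and -0.15 over all genes. Pml had 152, 110, 32.4, 112 and 17.3 CPM in prePC (days 10, 10, 16, 22 and 22), against 0.687 to 1.45 CPM in germinal centre cells, a difference of 6.32 ± 0.43. As in PC, Pml passed the filter through 1 side alone, here the prePC sums. Ifi27l2a had 2889, 1536, 442, 1288 and 503 CPM in prePC, against 216 to 779 CPM in germinal centre cells. Its prePC level was above that of germinal centre cells of the same mouse in 5 of 5 mice. Ifi203 (3.27), Bst2 (1.61) and Isg20 (1.34) were higher in 5 of 5 mice, Isg15 (1.97), Zbp1 (1.29) and Trim30a (1.26) in 4 of 5 and Ddx58 (2.70) in 3 of 5. Outside day 10 mouse 2 these orders rest on few UMIs. Ifi203 had 4, 1, 5 and 5 prePC UMIs in the other mice, Bst2 10, 6, 6 and 6 and Isg20 6, 3, 7 and 4. Cd3e and C1qa, markers of T cells and macrophages, were above 0 in prePC, and their part in these values was not tested. With cells thinned 3 members were called higher, and 5 without day 10 mouse 2. In G1 cells Isg20 and Zbp1 kept their direction without the call (edgeR adjusted p = 0.215 and 0.0640).

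preMem cells showed the broadest difference. Of 31 members tested, 26 were higher than in germinal centre cells and 0 lower, against 16.2% of all 9170 genes called higher and 20.1% called lower. The median log2 difference was 1.34 over the members and -0.01 over all genes. Pml, Pydc3 and Lgals3bp, with at most 1.40, 2.66 and 1.40 CPM in germinal centre cells, passed the filter through their preMem sums alone. These members could only be called higher, and the count and median include them. Members not called were Oas1a, Parp9, Isg20, Ifi35 and Dhx58, all with positive differences.

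Pml again led, with 72.3, 65.2, 34.1, 38.5, 37.6 and 102 CPM in preMem, against 0 to 1.40 CPM in germinal centre cells (6.20 ± 0.34). Pydc3, which encodes a pyrin-domain protein of the mouse p200 cluster, had 72.3 and 43.1 CPM in preMem at day 10, 14.6 and 2.96 at day 16 and 16.7 and 21.4 at day 22, against 0.150 to 2.66 CPM in germinal centre cells (4.67 ± 0.39). Ifi203 had 75.6, 92.1, 107, 47.3, 66.8 and 53.5 CPM in preMem, against 1.43 to 11.7 CPM (4.06 ± 0.34). For Ifi203 no preMem value overlapped the germinal centre range. Pml and Pydc3 did not overlap it either, but both passed the filter through preMem alone, so this adds no support. The lowest Pydc3 value in preMem, 2.96 CPM against 2.66, was 1 UMI in day 16 mouse 2.

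Slfn2 had 260, 333, 263, 195, 142 and 251 CPM in preMem, against 43.4 to 94.4 CPM in germinal centre cells (1.91 ± 0.11, edgeR adjusted p = 7.55e-11). Irf9 averaged 59.8 ± 13.2 CPM in preMem and 18.7 ± 8.25 in germinal centre cells (SD, n = 6 mice, difference 1.65 ± 0.20). Samd9l, lower in PC, averaged 60.1 ± 10.2 CPM in preMem and 20.9 ± 1.79 in germinal centre cells (1.53 ± 0.16), and Sp100 was higher by 0.76. Isg15, which was 3.71 log2 units higher in PC, was 1.03 higher in preMem, in 5 of 6 mice. Bst2 was 0.98 higher and Isg20 did not pass the test (0.40, edgeR adjusted p = 0.125). Differences between preMem and PC themselves were not tested.

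The rest of the higher members in preMem were Lgals3bp (3.83), Irgm1 (3.81), Rtp4 (3.13), Ddx58 (2.97), Oasl2 (2.12), Usp18 (1.74), Xaf1 (1.63), Ifi47 (1.45), Ifitm3 (1.38), Parp14 (1.34), Zbp1 (1.25), Trim30a (1.25), Trim25 (1.21), Stat2 (1.16), Ifi27l2a (1.00), Dtx3l (0.91) and Irf7 (0.74). Some had few preMem UMIs after day 10. In the 6 mice, day 10 first, Rtp4 had 11, 86, 0, 2, 1 and 4 UMIs and Oasl2 3, 36, 2, 0, 2 and 1. Usp18 had 6, 44, 1, 1, 2 and 3 and Ifitm3 6, 42, 2, 1, 5 and 0. preMem cells were shallower than germinal centre cells, and with cells thinned to a common depth 16 members were called higher. In G1 cells, a restriction added after seeing the data, 19 members kept direction and call. Irf7 (0.34, edgeR adjusted p = 0.208) and Dtx3l (0.57, edgeR adjusted p = 0.0589) kept direction alone. Slfn2 was higher by 1.43, Irf9 by 1.22 and Bst2 by 1.03 in that fit.

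**Figure D4:**
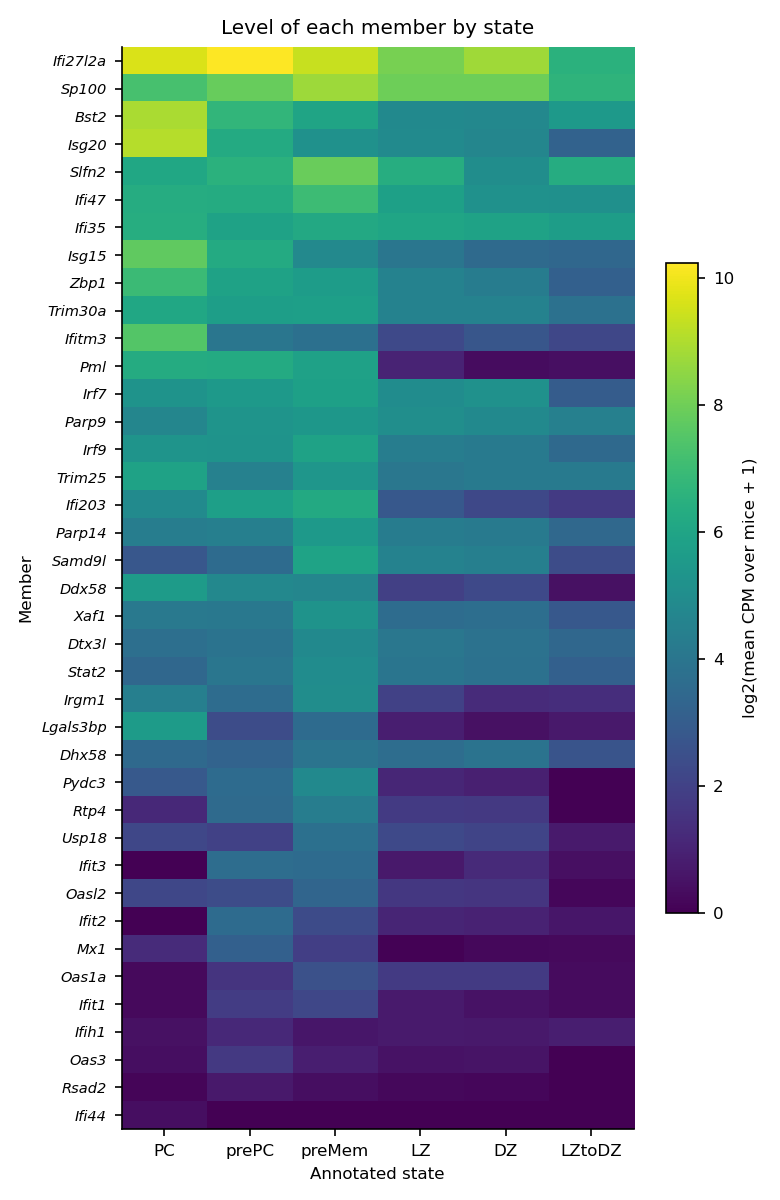
Level of each of the 39 members in the 6 annotated states, as log2 of the mean over mice of unscaled CPM plus 1, with members ordered by level. Read along a row, Pml is bright in PC, prePC and preMem and near 0 in LZ, DZ and LZtoDZ, and Ifi44, with 3 UMIs in all, is near 0 throughout.

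LZ and DZ cells differed in fewer members and in both directions. Of 25 members tested, 7 were higher in LZ and 1 lower, against 16.5% of all 9390 genes called higher and 17.4% called lower. The share of members was above that of all genes on the higher side and below it on the lower side. Slfn2 had 112, 128, 78.3, 80.9, 70.8 and 68.8 CPM in LZ, against 52.4, 57.8, 24.2, 27.1, 22.6 and 20.3 CPM in DZ of the same mice (1.46 ± 0.09, edgeR adjusted p = 1.16e-08). The LZ level was above the DZ level in 6 of 6 mice. Ifi47, an immunity-related GTPase, averaged 60.6 ± 17.5 CPM in LZ and 38.0 ± 9.92 in DZ (SD, n = 6 mice, 0.67 ± 0.06), higher in 6 of 6 mice. Ifi27l2a ran the other way, at 447, 664, 173, 160, 210 and 181 CPM in LZ, against 502, 1058, 333, 305, 307 and 342 CPM in DZ (-0.69 ± 0.08), lower in LZ in 6 of 6 mice. Without the mouse as a block 3 members were higher and 0 lower. Irgm1 (1.04), Ifi203 (0.77), Isg15 (0.57), Isg20 (0.24) and Parp9 (0.24) were also higher in LZ, each by edgeR with an adjusted p below 0.05. Parp9 and Dtx3l overlap head to head in the annotation, and their reads could be divided between them only if the counting used strand.

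Among PC, members were lower in cycling cells. PC called S or G2M in the deposited phase column were set against PC called G1 in the 4 mice with 5 or more cells of each (both day 10 mice, day 16 mouse 2 and day 22 mouse 1). Of 14 members tested, 6 fell and 0 rose, against 12.3% of all 2804 genes called lower and 14.6% called higher, with a median log2 difference of -0.73 over the members and 0.00 over all genes. The 6 were lower in cycling cells of all 4 mice. With thinned cells, or without the mouse as a block, 3 fell.

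Isg20 had 231, 325, 87.2 and 223 CPM in cycling PC, against 520, 795, 612 and 867 CPM in G1 PC of the same mice (-1.78 ± 0.26, edgeR adjusted p = 0.00402). The highest cycling value was below the lowest G1 value. Isg15 had 61.3, 194, 12.2 and 61.1 CPM in cycling PC, against 334, 562, 73.8 and 108 CPM in G1 PC (-1.61 ± 0.23, edgeR adjusted p = 0.00378). The cycling value was the lower in each mouse, and the ranges of the groups overlapped. Lgals3bp, a secreted glycoprotein, had 6.81, 36.1, 12.2 and 46.6 CPM in cycling PC, against 57.8, 138, 59.0 and 115 CPM in G1 PC (-1.84 ± 0.26, edgeR adjusted p = 0.00358). Bst2 had 415, 394, 114 and 353 CPM in cycling PC, against 475, 1082, 472 and 912 CPM in G1 PC (-1.28 ± 0.27, edgeR adjusted p = 0.0150). Zbp1 (-1.41, edgeR adjusted p = 0.00157) and Ifi27l2a (-1.68, edgeR adjusted p = 0.00926) completed the 6.

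Pml and Ifitm3, the members most raised in PC, did not pass this test. Pml had 61.3, 93.2, 60.8 and 45.0 CPM in cycling PC, against 45.0, 77.7, 29.5 and 57.4 CPM in G1 PC (0.28, edgeR adjusted p = 0.454). Ifitm3 had a difference of -0.90 (edgeR adjusted p = 0.106).

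Cycling PC carried more RNA. The 120 cycling PC averaged 24467 UMIs per cell with 17.1% from immunoglobulin genes, and the 122 G1 PC averaged 15776 with 29.7%. In UMIs per cell, pooled over all 6 mice and not scaled to depth, the differences were smaller. Isg20 averaged 6.34 UMIs per cycling PC and 8.98 per G1 PC, Bst2 8.14 and 10.2, Ifi27l2a 12.9 and 20.8, and Lgals3bp 0.800 and 1.26. Zbp1 averaged 2.09 UMIs per cycling PC and 2.54 per G1 PC. Isg15 averaged 3.40 UMIs per cycling PC and 4.65 per G1 PC, with 5.18 in cells called S and 1.29 in cells called G2M. Pml averaged 1.82 UMIs per cycling PC and 0.770 per G1 PC, and Ifitm3 3.87 and 2.61. Day 10 mouse 2 gave 69 of the G1 and 58 of the cycling PC in this pool. Within mice, Isg20, Zbp1 and Lgals3bp were lower per cycling cell in all 4 tested. Bst2 was higher per cycling cell in day 10 mouse 1 (61 UMIs in 7 cycling PC, 74 in 12 G1 PC). In day 22 mouse 1, with 27 cycling and 16 G1 PC, Isg15 (38 and 17 UMIs) and Ifi27l2a (113 and 63) were also higher. Their other tested mice had the pooled order. The part of RNA content in the CPM differences was not tested.

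**Figure D5:**
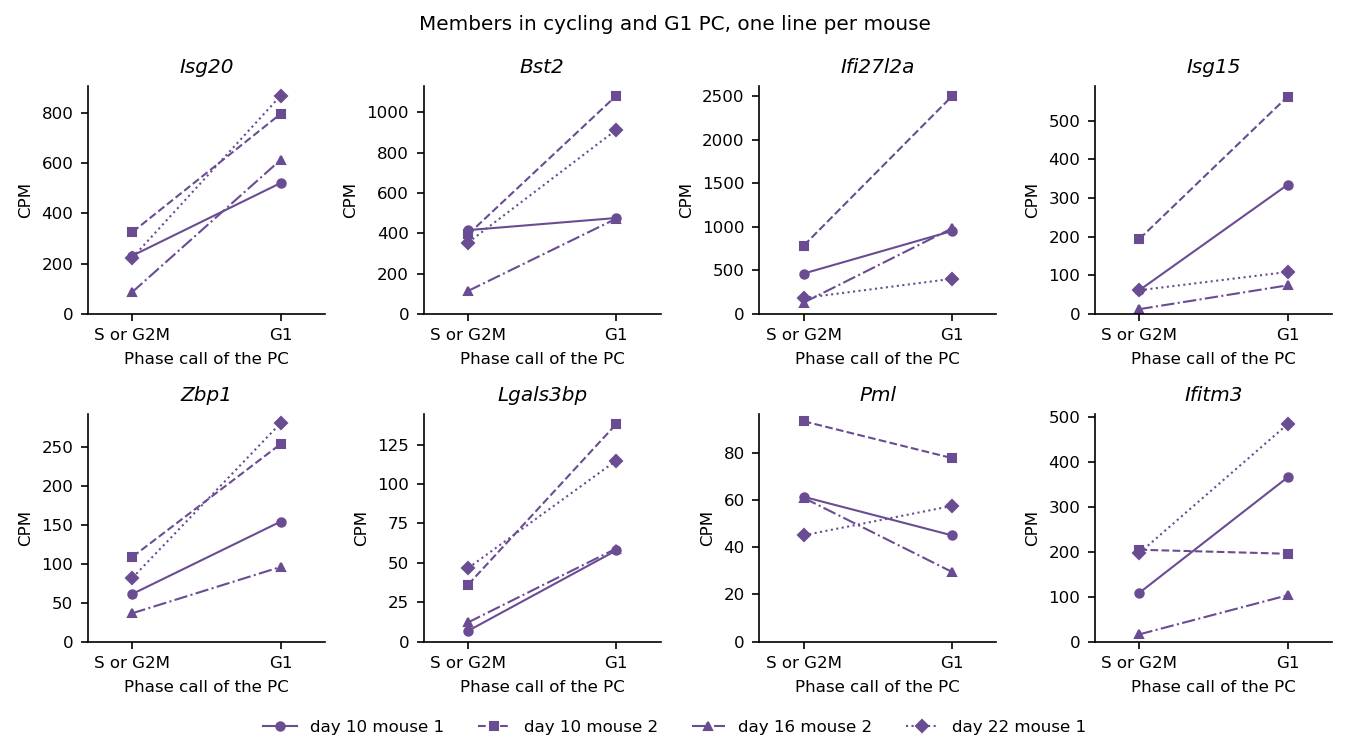
Level of 8 members in cycling (S or G2M) and G1 PC, as CPM with axes starting at 0, with 1 line per mouse. All 4 lines of Isg20, Bst2, Ifi27l2a, Isg15, Zbp1 and Lgals3bp are lower at the cycling end, while Pml is higher at that end in 3 of 4 mice and Ifitm3 lower in 3 of 4.

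Upstream genes of the pathway were also called between states. In PC, 7 of 21 tested were higher and 11 lower than in germinal centre cells, against 20.4% of all genes called higher and 25.5% called lower. Ifnar2 (2.85) and Tmem173 (STING, the adaptor of cytosolic DNA sensing, 1.84) were among those higher, and Ifngr1 (-2.25) and the feedback inhibitor Socs1 (-2.58) among those lower. In prePC, 2 of 20 were higher, Tmem173 (1.23) and Ifnar2 (1.41), and 0 lower, against 3.71% and 4.72% of all genes. In preMem, 12 of 21 were higher and 0 lower, against 16.2% and 20.1% of all genes, and Irf1 (1.60), the RNA sensor Tlr7 (4.39) and Tmem173 (1.20) were among the 12. In LZ against DZ, 11 of 20 were higher and 1 lower, against 16.5% and 17.4% of all genes, with Ifngr2 (1.13), Socs1 (1.06), Irf1 (0.64) and Irf5 (0.53) at the lowest p. In cycling PC, 2 of 7 fell, among them Irf1 (-1.12), and 0 rose, against 12.3% of all genes called lower and 14.6% called higher.

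The further induced genes were set against the same shares of all genes. In PC, 12 of 32 were higher and 8 lower than in germinal centre cells (20.4% and 25.5% of all genes), so the share called lower was near that of all genes, with Ly6a (4.05), the MHC class I light chain B2m (2.17), Shisa5 (1.60) and Lap3 (1.54) at the lowest p. In prePC, 11 of 32 were higher and 0 lower (3.71% and 4.72% of all genes). In preMem, 29 of 36 were higher and 2 lower (16.2% and 20.1% of all genes), with Mndal (4.27), Ms4a4c (3.05), Shisa5 (2.14) and B2m (1.18) at the lowest p. In LZ against DZ, 19 of 34 were higher and 0 lower (16.5% and 17.4% of all genes). In cycling against G1 PC, where 12.3% of all genes were called lower, 4 of 12 fell (Sp140, -0.97, Ly6a, -0.79, Shisa5, -0.73, and B2m, -1.02) and 0 rose.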

How the data were processed

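Draining lymph node cells of 6 mice were hashed, sorted, pooled per fraction and sequenced as 10x 5′ libraries, per the labels' protocols. The authors used Cell Ranger, Seurat and mm10/GRCm38, per the submitters' processing notes, with versions not given in the sources used here. The deposited matrix holds raw UMI counts for 14493 genes in 6619 cells, and the deposited cell table gives the total count, state, phase call, day and mouse, whose rules are not given in the sources used here. No cell was removed and no doublet caller was run. The samples of the series hold pooled mice, so mice were taken from the cell table.

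Each mouse and state gave 1 sum of counts (10 cells or more, prePC 3, phases in PC 5) and was tested with edgeR 4.0.16 in R 4.3.3 (TMM, filterByExpr, quasi-likelihood F test, Benjamini-Hochberg over all genes tested, threshold 0.05). The filter keeps a gene with enough counts in as many sums as the smallest group holds. A gene near 0 in 1 group can thus pass through the other group alone, and its possible call then has only 1 direction. The SE of a log2 difference is its size divided by the square root of its F statistic. It uses variance shared across genes and is not the spread of the mice. The mouse was a block in state and phase comparisons, where both sums come from the same animal, and could not be one between days. Whether the 2 mice of a day shared litter, cage or labelling conditions is not stated. The alternatives were DESeq2 1.42.0 and its size factors, no filter, immunoglobulin genes left out, cells thinned to 4727 UMIs, 1 well, G1 cells, other minimum cell numbers, no block and each mouse left out. The G1 restriction for PC, prePC and preMem was added after seeing the data.

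The 39 members, the 2 other gene lists and the tests were chosen with earlier results of these data known. All members are accounted for. Up to 8 genes per direction past the threshold with 20 CPM or more in the higher group were given in full, further members past it by their difference, and up to 4 genes of each other list by lowest p. Ifi203, Oas1a, Trim30a, Ifitm3, Slfn2 and Pydc3 have close paralogs, so their counts are less certain. Gene overlaps are from GENCODE M21. A gene of the pathway list is counted but not reported here by name.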

Additional observations from a re-analysis of the deposited data

Results flagged for a closer look

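Differences of log2(CPM + 1) between states within each mouse were checked for a mouse far from the others, and 6 of 65 sets of mice had one, where chance gives about 1 in 20. In PC against germinal centre cells, day 22 mouse 2 had a Trim25 difference of 0.692 and an Ifi47 difference of -1.98, and day 16 mouse 1 had an Irgm1 difference of -1.34. These 2 mice had 12 PC each, the fewest of the 6. In prePC against germinal centre cells, day 22 mouse 2 had a Trim30a difference of -4.42, from 6 prePC cells and no Trim30a UMI. In preMem against germinal centre cells, day 16 mouse 1 had a Stat2 difference of 0.101. In LZ against DZ, day 10 mouse 1 had a Parp9 difference of -0.296.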

How the results depend on the processing

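Of 1257 recomputed values of the 89 called member differences, 1099 kept direction and call, 157 kept direction without the call, and 1 changed sign: Sp100 in PC against germinal centre cells, 0.49 with only cells of the PC well. The cause was not tested. Counts of members lower at day 22 against day 10 were, in LZ, 13 without the filter, 15 with immunoglobulin genes left out and 2 to 7 with each mouse left out (2 without day 10 mouse 2, 2 without day 22 mouse 2, 3 without day 22 mouse 1 and 4 without day 16 mouse 1). In DZ they were 21, 21 and 2 to 11, with 3 thinned and 2 in G1 cells. In DZ it was 11 without day 10 mouse 1, 2 without day 10 mouse 2, 2 without day 22 mouse 1 and 4 without day 22 mouse 2. A mouse left alone in its day is assumed to vary like the others. Leaving immunoglobulin genes out raised the share of all genes called to 4.39% in LZ, against 1.52% with them. For day 16 against day 10 they were 10, 15 and 0 to 6 in LZ and 20, 18 and 0 to 11 in DZ, where DESeq2 gave 9, thinning 0 and G1 cells 0. Without day 10 mouse 1 DZ had 11, without day 10 mouse 2 both zones had 1, and without day 16 mouse 1 or mouse 2 LZ had 2 and 0 and DZ had 0 and 0. In preMem they were 2, 1 and 0 at day 22 and 8, 6 and 0 to 2 at day 16, with 0 thinned, 2 without day 10 mouse 1 and 0 without day 16 mouse 2. The interactions called 1 without the filter for DZ against LZ, and 1 without it and 1 without immunoglobulin genes for preMem against LZ. In PC 6 were higher and 0 lower in 1 well, 4 lower without the filter and 11 to 16 higher with each mouse left out. In prePC 17 were higher without the filter, 3 thinned and 5 to 11 with each mouse left out (5 without day 10 mouse 2). In preMem 16 were higher thinned and 22 to 28 with each mouse left out. In LZ against DZ 3 were higher by DESeq2, 2 thinned, 4 in G1 cells and 5 to 6 with each mouse left out, and 3 lower without immunoglobulin genes and 1 to 2 with each mouse left out (2 without day 16 mouse 1 or day 22 mouse 1). In cycling PC 3 fell thinned and 5 to 6 with each mouse left out. Without the replicate block, in which mice pair their own cells, LZ against DZ gave 3 higher and 0 lower, and cycling PC 3 lower; in PC, prePC, preMem and the interactions no count left 1.5 times its value. Slfn2 and Ifi27l2a in LZ at day 22 and Slfn2 in DZ passed the test under all 14 alternatives. Except where stated, counts under other settings, here and above, are given without the share of all genes called. They describe only how the calls moved. Depth limits Ifit, Oas, Mx1 and Rsad2, and 2 mice a day limit the day comparisons.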
